A study of Mus musculus with 63 samples.

Results

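RNA was sequenced from whole ovaries of female C57BL/6 mice exposed to chronic unpredictable mild stress (CUMS), in which mild stressors change without a pattern the animal can learn, and of mice kept without it. The libraries described here carry the titles 6M-12W-Ova-CUMS and 6M-12W-Ova-Ctrl, which give an age of 6 months and a stress duration of 12 weeks. They are 4 CUMS libraries and 3 control libraries, 7 of the 63 libraries of the series and 7 of its 31 ovary libraries. All mice are labelled with the same strain, and the labels name no genetic change and no other agent. The other ovary sets, used below where their stress effect is set beside this one, are 6M-8W (6 months, 8 weeks), 2M-12W (2 months, 12 weeks) and 2M-8W (2 months, 8 weeks), with 8 libraries each. The sources used here do not give the estrous stage, the hour of collection or the day of sequencing, or say whether age was counted when stress began or when it ended. The labels also do not say that the libraries of a group came from separate animals. A p-value below thus measures the spread between libraries. Unless stated otherwise, that spread was estimated over the 31 ovary libraries together. The study's title asks how young and adult females differ in their response.

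The adult ovary holds follicles, in which an oocyte is wrapped by granulosa cells and an outer layer of theca cells, and corpora lutea, which form from the follicle wall after ovulation and make progesterone. Theca cells make androgens, granulosa cells turn them into estrogens, and luteal cells depend on luteinising hormone and prolactin until prostaglandin F2-alpha ends their life. Follicles and corpora lutea wax and wane with the estrous cycle, so the RNA of a whole ovary depends on how many of each it holds. The sources used here do not say whether counting used strand, so reads of a gene and of an antisense or overlapping partner cannot be told apart. In such bulk RNA, fewer cells of a type and less RNA per cell cannot be told apart.

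The 4 CUMS libraries held 19192791 to 22695051 counted reads and the 3 control libraries 21501972 to 28777668. Reads from mitochondrial genes made up 4.345% to 4.562% of the counts in CUMS libraries and 5.196% to 6.267% in control libraries, without overlap. Ovarian markers were present in the 7 libraries: the authors' FPKM values, which are scaled by gene length, ran from 9.33 to 40.6 for the oocyte gene Gdf9, from 76.9 to 131 for the granulosa gene Foxl2 and from 715 to 1260 for the steroid enzyme gene Cyp11a1. In a principal component analysis of these libraries the first component held 47.1% of the variance and put CUMS ovaries at 19.18 to 38.86 and controls 1, 2 and 3 at -40.9, -57.7 and -15.86. Control 3 thus lay nearest the stressed ovaries and control 2 farthest from them.

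Of 17766 genes tested, 2032 passed (edgeR's quasi-likelihood F test, Benjamini-Hochberg adjusted p under 0.05), which is 11.4%. In stressed ovaries 920 genes were higher (5.18%) and 1112 were lower (6.26%). Losses were larger than gains: the median log2 fold (CUMS over control) was 0.441 among the higher genes and -0.685 among the lower ones, against 0.0119 over all genes tested. A log2 fold of at least 1 in size was reached by 72 of the higher and 373 of the lower genes. In 1947 of the 2032 genes the CUMS and control libraries did not overlap, against 5523 of all genes tested (31.1%). Control 3 was the control nearest the CUMS libraries in 599 of the 920 higher and 805 of the 1112 lower genes. The count rested on single libraries: 550 genes passed without control 2, 844 without control 1, 1150 without CUMS 4, 1291 without CUMS 1, 1391 without CUMS 3, 1668 without CUMS 2 and 2266 without control 3.

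**Figure D1:**
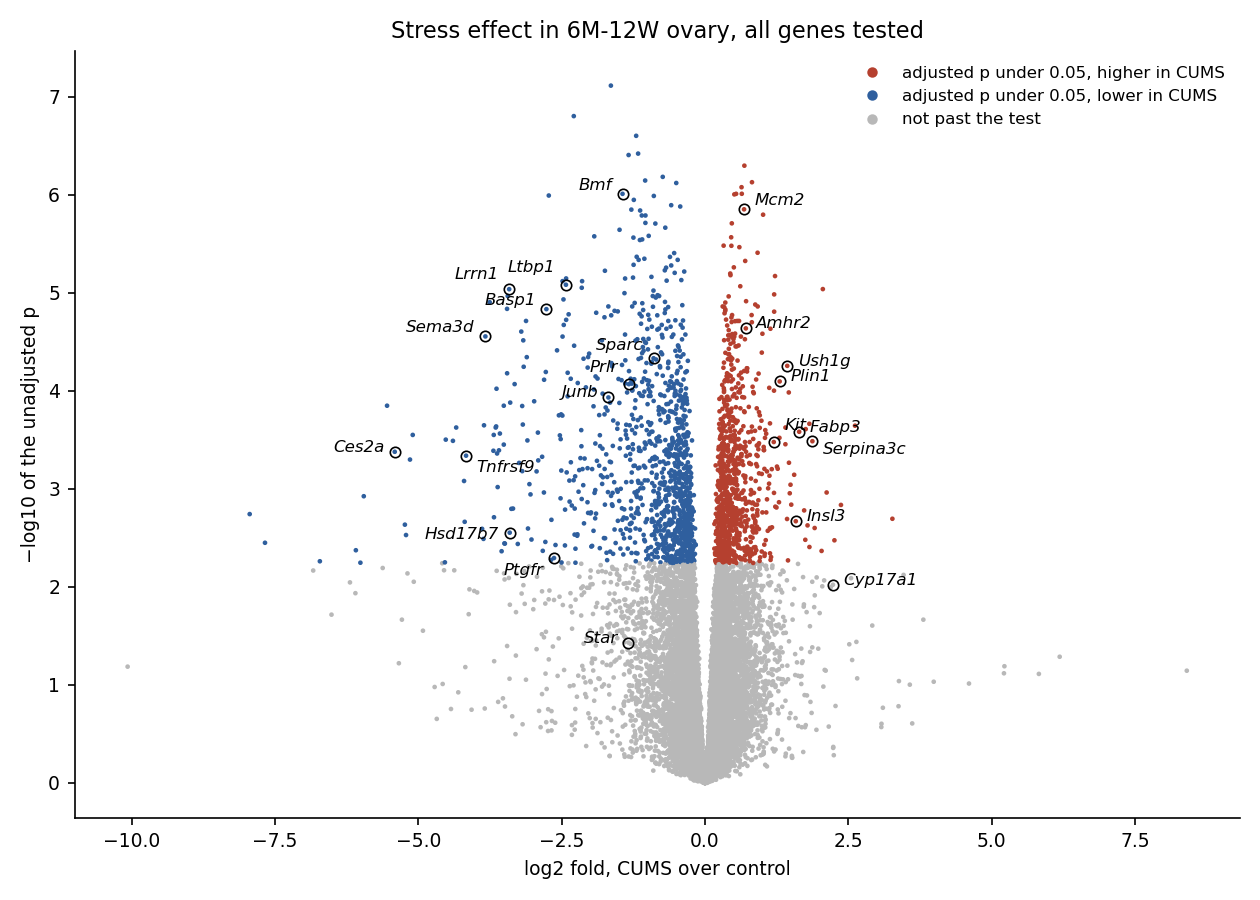
Each point is 1 of 17766 genes, with its log2 fold (CUMS over control) across and the −log10 of its unadjusted p upward, and named genes are circled. The 1112 genes lower in CUMS reach larger folds than the 920 genes higher in CUMS.

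**Figure D2:**
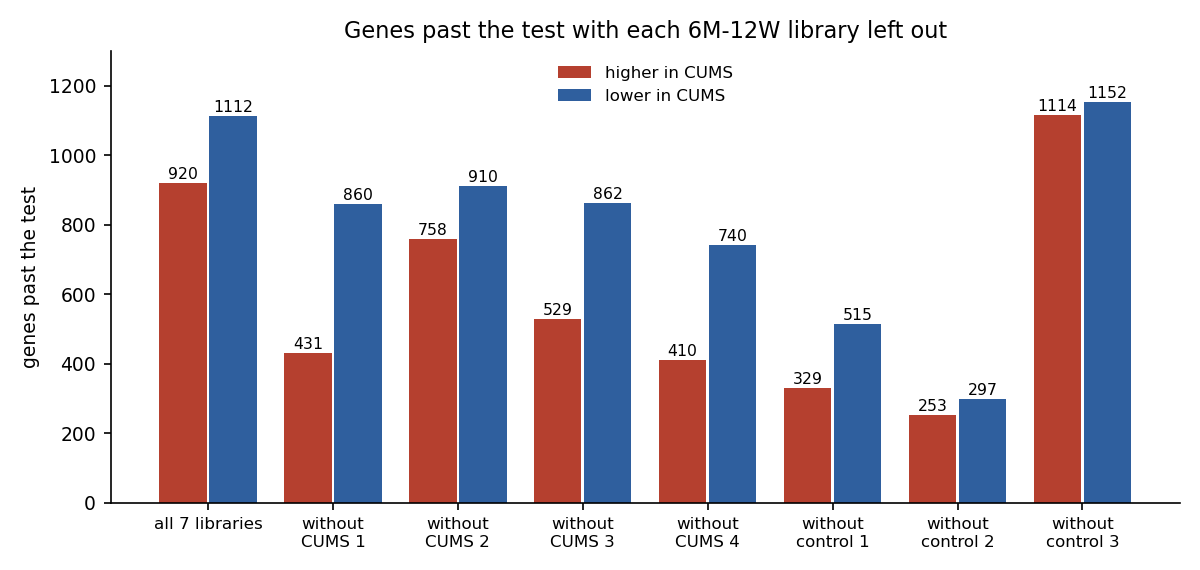
Bars give the number of genes past the test, higher and lower in CUMS, with the 7 libraries of the set and with each of them left out. The counts are lowest without control 2, at 253 higher and 297 lower, and highest without control 3, at 1114 and 1152.

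Transcripts of the oocyte were higher in the stressed ovaries. This and the following gene lists were chosen with earlier results of these data known, so their shares give no independent support. Of 24 oocyte genes tested, 10 rose (41.7%, against 5.18% of all genes) and none fell, and the 24 log2 folds lay between 0.23 and 1.20 with a median of 0.72. Zar1, a maternal factor of the egg-to-embryo transition, had 28.8, 23.0, 26.9 and 31.2 CPM (counts scaled to a common library total) in CUMS ovaries, against 10.7, 7.71 and 19.1 CPM in controls. Its log2 fold was 1.13 ± 0.27 (SE, adjusted p = 0.00807). Zp3, an egg coat protein that binds sperm, had 55.5, 48.4, 54.1 and 64.8 CPM in CUMS ovaries, against 30.2, 12.9 and 45.6 CPM in controls (0.91 ± 0.26, adjusted p = 0.0237). For both genes the groups did not overlap, control 2 was lowest and control 3 came close to the stressed ovaries. Zp1, another egg coat protein, rose by 1.05 ± 0.25 (adjusted p = 0.00951), and Gdf9, a growth factor the oocyte sends to granulosa cells, by 0.85 ± 0.26 (adjusted p = 0.0315). Kit, the receptor on oocytes and theca cells for Kitl of granulosa cells, had 125, 116, 105 and 182 CPM in CUMS ovaries, against 68.3, 41.9 and 62.2 CPM in controls. It rose by 1.20 ± 0.29 (adjusted p = 0.00984), with CUMS 4 highest and no overlap. The partner Bmp15 overlapped between the groups (0.48 ± 0.23, adjusted p = 0.169). Zp2 and Padi6 passed the test although control 3 lay above CUMS 2 in both. Control 2 carried much of this list: without it 0 of the 24 genes passed and the median was 0.43, while without control 3 the count was 17 and the median 1.15. With any other library left out 3 to 10 passed. Without control 2 the adjusted p was 0.0747 for Zar1, 0.15 for Zp3, 0.0646 for Zp1, 0.208 for Gdf9 and 0.0775 for Kit. Zp3 also missed the threshold without control 1, CUMS 1 or CUMS 4 (up to 0.0746), and Gdf9 without control 1, CUMS 1, CUMS 3 or CUMS 4 (up to 0.09).

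**Figure D3:**
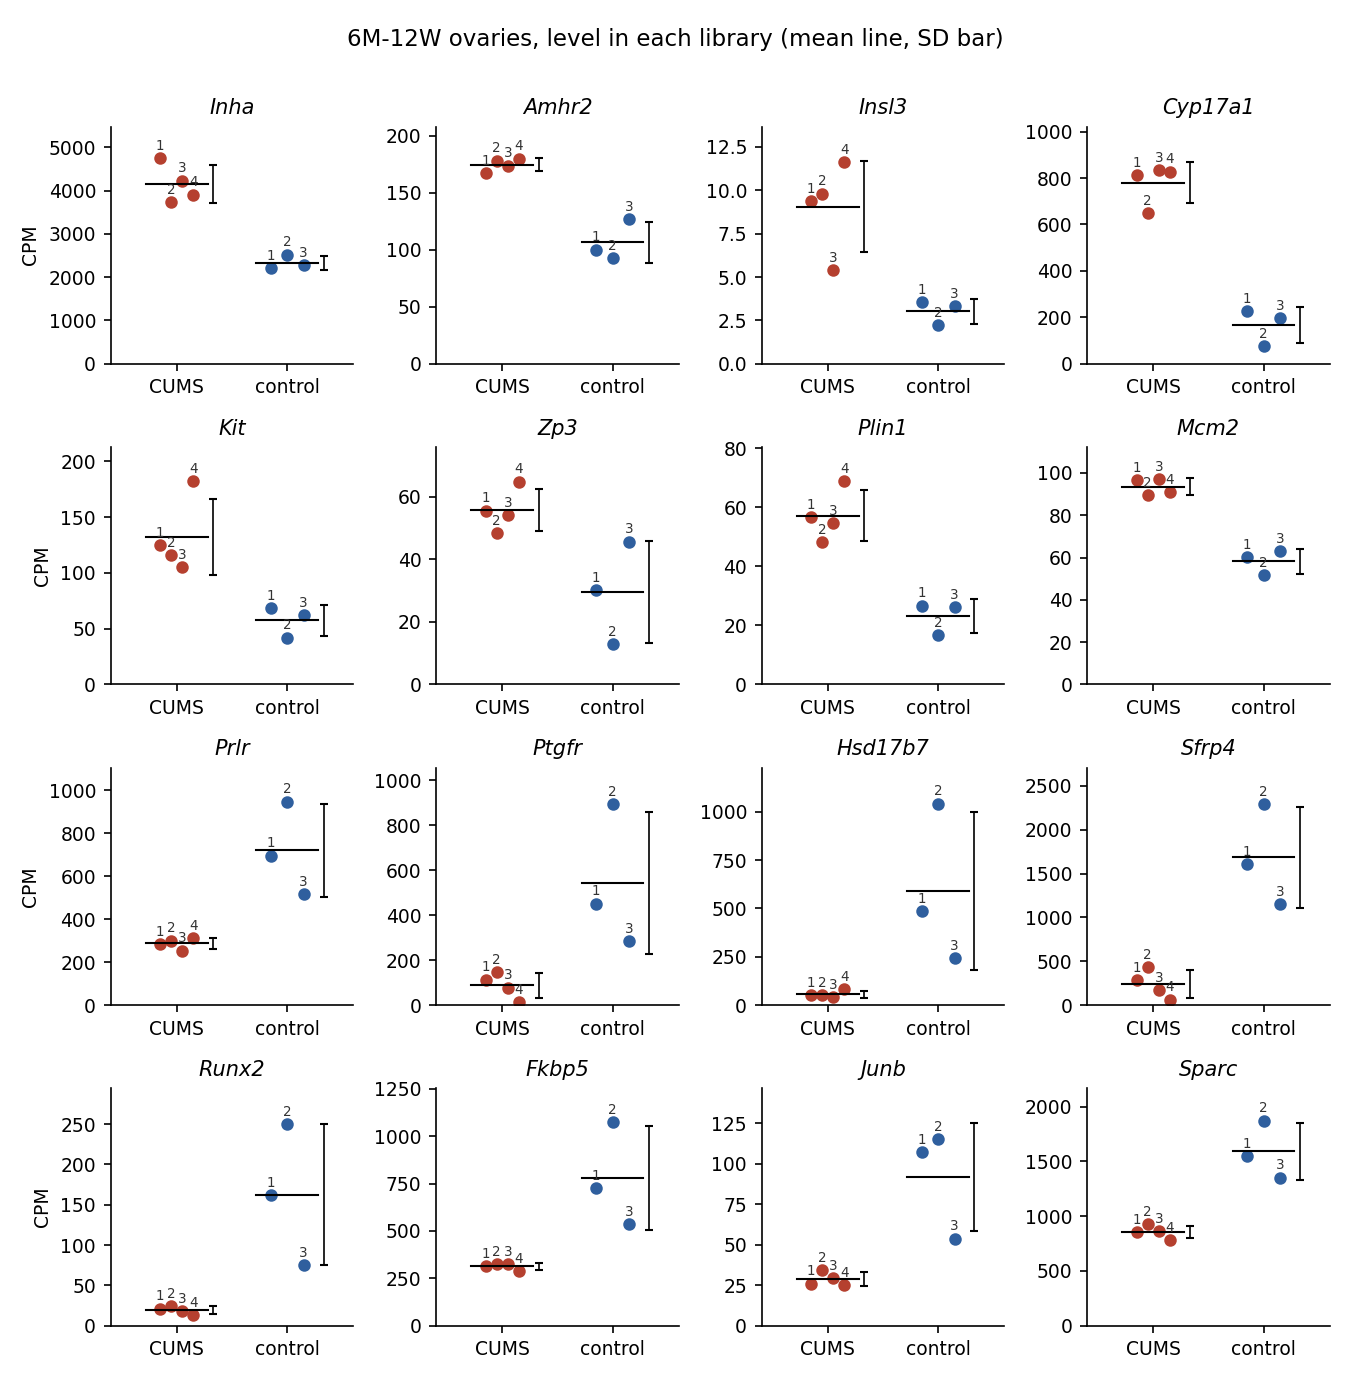
Each panel gives the CPM of 1 gene in the 4 CUMS and 3 control ovaries (points numbered by replicate, line at the mean, bar for the SD). In the 16 panels CUMS lies above the controls for 8 genes (Inha, Amhr2, Insl3, Cyp17a1, Kit, Zp3, Plin1 and Mcm2) and below them for the other 8.

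Granulosa genes were also higher. Of 17 tested, 4 rose (23.5%, against 5.18% of all genes) and none fell, the 17 folds were above 0 and their median was 0.49. Amhr2, the receptor for anti-Müllerian hormone (ENSMUSG00000023047, chromosome 15, 102445367 to 102454630, plus strand, GRCm38), had 167, 178, 174 and 180.0 CPM in CUMS ovaries, against 100.1, 92.7 and 127 CPM in controls. The rise was 0.71 ± 0.14 (adjusted p = 0.00289), the groups stood clear of each other, and the call held with each of the 7 libraries left out. Inha, the alpha subunit of inhibin, which holds back pituitary FSH, had 4742, 3728, 4230 and 3902 CPM in CUMS ovaries, against 2208, 2518 and 2284 CPM in controls (0.83 ± 0.25, adjusted p = 0.0295). Dhh, a hedgehog ligand that granulosa cells send to the theca, averaged 49.7 ± 4.82 CPM in CUMS ovaries and 29.1 ± 3.87 CPM in controls (SD, n = 4 and 3; fold 0.77 ± 0.20, adjusted p = 0.0126). Foxl2, a transcription factor that keeps granulosa identity, rose by 0.47 ± 0.12 (adjusted p = 0.016). Not past the test were Fshr, the FSH receptor (0.67 ± 0.35, adjusted p = 0.226), Inhba, the activin beta A subunit (0.50 ± 0.43, adjusted p = 0.487), and Cyp19a1, the aromatase gene (0.06 ± 0.56, adjusted p = 0.96). Amh, the hormone of small growing follicles, had 264, 303, 223 and 238 CPM in CUMS ovaries, against 104, 91.9 and 247 CPM in controls. Here control 3 lay among the stressed ovaries, and the adjusted p was 0.0612. Inha kept its call only without CUMS 2 (adjusted p 0.056 to 0.108 without any of the other 6), Dhh lost it without control 2 (0.0886), and Foxl2 lost it without control 1, control 2, CUMS 1 or CUMS 3 (0.0505 to 0.0883). The count for the list was 1 without control 2 and 2 to 4 without any other library.

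Several theca markers were higher too. Of 8 tested, 3 rose (37.5%, against 5.18% of all genes) and none fell, with a median of 0.54. Gli1, a transcriptional target of hedgehog signalling, rose by 0.58 ± 0.14 (adjusted p = 0.00961). Insl3, a theca peptide hormone, had 9.38, 9.81, 5.39 and 11.6 CPM in CUMS ovaries, against 3.54, 2.21 and 3.32 CPM in controls (1.58 ± 0.47, adjusted p = 0.0274). Cyp17a1, the theca enzyme that makes androgens, had 812, 649, 833 and 828 CPM in CUMS ovaries, against 226, 77.2 and 196 CPM in controls. Its stressed libraries lay far above the controls and its log2 fold was 2.23. With an SE of 0.80, from the spread over the 31 ovary libraries, it did not pass (adjusted p = 0.0667). In an edgeR fit of the 7 libraries alone its adjusted p was 0.00715, and it passed under 5 of 38 settings. Without control 2 no gene of this list passed (adjusted p = 0.0886 for Gli1 and 0.138 for Insl3), and without any other library 1 to 4 did. Insl3 also missed it without control 1, CUMS 1 or CUMS 4 (0.057 to 0.079).

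Luteal transcripts went the other way. Of 12 genes tested 4 fell (33.3%, against 6.26% of all genes) and none rose, with 11 folds below 0 and a median of -0.79. Prlr, the prolactin receptor (ENSMUSG00000005268, chromosome 15, 10177238 to 10349180, plus strand), had 285, 299, 253 and 310.5 CPM in CUMS ovaries, against 697, 948 and 516 CPM in controls. It fell by 1.33 ± 0.29 on the log2 scale (adjusted p = 0.00512), the groups did not overlap, and control 2 was highest. Ptgfr, the receptor for prostaglandin F2-alpha (ENSMUSG00000028036, chromosome 3, 151796502 to 151837630, minus strand), had 112, 147, 77.2 and 14.0 CPM in CUMS ovaries, against 451, 894 and 283 CPM in controls. The fold was -2.63 ± 0.86 (adjusted p = 0.0466), and CUMS 4 stood lowest by a wide margin.

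Hsd17b7, an enzyme of estradiol and cholesterol synthesis known from the rodent corpus luteum (ENSMUSG00000026675, chromosome 1, 169949535 to 169969241, minus strand), had 49.6, 49.98, 41.2 and 81.9 CPM in CUMS ovaries, against 486, 1041 and 244 CPM in controls (-3.41 ± 1.03, adjusted p = 0.0321). Sfrp4, a secreted Wnt-binding protein of luteal cells, had 287, 429.7, 171 and 61.2 CPM in CUMS ovaries, against 1610, 2294 and 1150 CPM in controls (-2.83 ± 0.91, adjusted p = 0.0421). Neither gene overlapped between the groups, and in the controls both were highest in control 2 and lowest in control 3. Akr1c18, which breaks down progesterone, had 122, 259, 42.1 and 2.17 CPM in CUMS ovaries, against 104, 336 and 108 CPM in controls, and overlapped (adjusted p = 0.702). The luteinising hormone receptor Lhcgr (-0.78 ± 0.40, adjusted p = 0.201) and Star, which carries cholesterol into mitochondria (-1.33 ± 0.61, adjusted p = 0.152), lay below the controls in the 4 stressed ovaries without passing. In an edgeR fit of the 7 libraries alone their adjusted p was 0.0264 and 0.00475, and each passed under 2 of 38 settings. Without control 2 none of the 12 luteal genes passed (adjusted p = 0.0567 for Prlr, 0.212 for Ptgfr, 0.158 for Hsd17b7 and 0.142 for Sfrp4) and the median was -0.33. Without any other library 1 to 4 passed. Ptgfr and Hsd17b7 kept their calls only without control 3 (adjusted p of 0.0517 to 0.118 for Ptgfr and 0.0605 to 0.0812 for Hsd17b7 without control 1 or any CUMS library), and Sfrp4 lost its call without control 1, CUMS 1, CUMS 3 or CUMS 4 (0.0796 to 0.113).

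Of 15 steroid synthesis genes tested 1 rose and 1 fell, each 6.67%, near the 5.18% and 6.26% of all genes, with a median of 0.04. The gene that rose was Nr5a1, the nuclear receptor SF-1 that drives steroid enzyme genes, with 697, 643, 639 and 746 CPM in CUMS ovaries, against 388, 328 and 425 CPM in controls (0.84 ± 0.20, adjusted p = 0.0096), and without control 2 no gene of this list passed. The side-chain cleavage enzyme Cyp11a1 (-0.29 ± 0.24, adjusted p = 0.478) and Hsd3b1 (-0.02 ± 0.14, adjusted p = 0.957) overlapped between the groups. Among 24 hormone receptors 2 rose and 2 fell, 8.33% in each direction, against 5.18% and 6.26% of all genes. Thra, a thyroid hormone receptor, was the remaining rise beside Amhr2, with 176, 184, 183 and 184 CPM in CUMS ovaries, against 133, 123 and 154 CPM in controls (0.41 ± 0.08, adjusted p = 0.00242). The estrogen receptors Esr1 and Esr2 and the progesterone receptor Pgr did not pass (adjusted p = 0.757, 0.233 and 0.956).

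**Figure D4:**
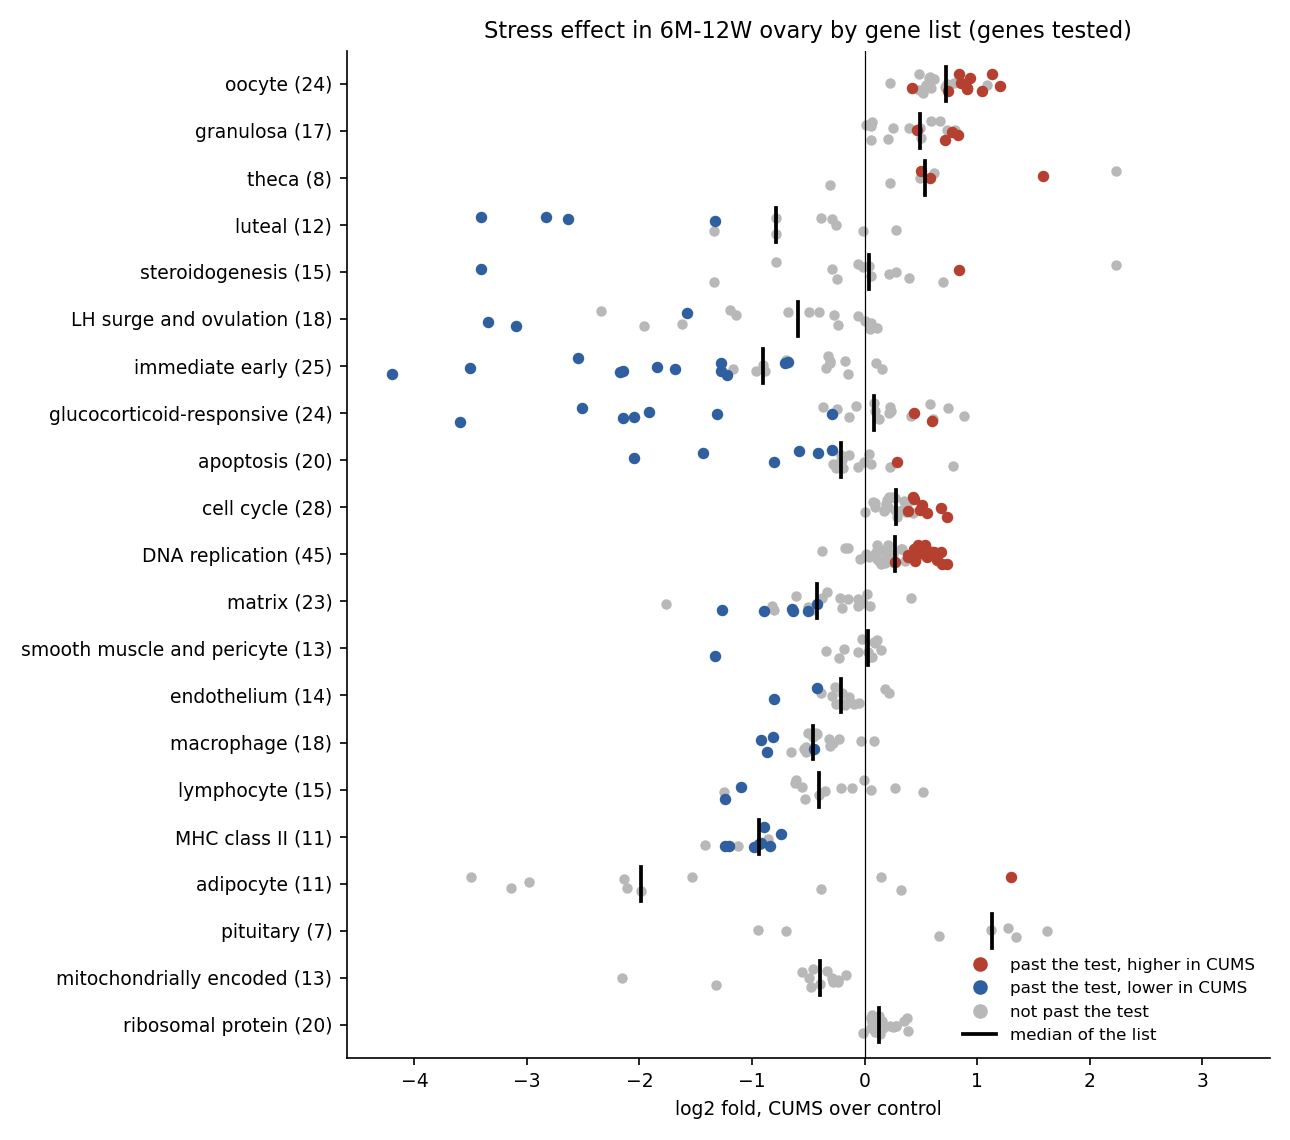
Each point is a tested gene of the list named at the left (number tested in brackets), placed by its log2 fold (CUMS over control) and coloured where it passed the test, and the black bar is the median of the list. Oocyte, granulosa, theca, cell cycle and DNA replication genes lie mostly to the right of 0, and luteal, immediate early, matrix, macrophage and MHC class II genes mostly to the left. The DNA replication and MHC class II lists were chosen after their values had been seen, and the other lists with earlier results of these data known.

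Immediate early genes, which cells switch on within minutes of a signal and off again soon after, were the list with the most losses by share among those written with the design. Of 25 tested 12 fell (48.0%, against 6.26% of all genes) and none rose, with 23 folds below 0 and a median of -0.90. The promoters of 3 genes of this list that fell are printed to show the response elements for which such genes are known. They are the 250 bases before the RefSeq start (build GRCm38.p6, minus strand for each), 5′ to 3′, at chr1:134079156-134079405 for Btg2, chr8:84978749-84978998 for Junb and chr7:28379229-28379478 for Zfp36. Capitals mark TGACG, the core of the cAMP response element, and the serum response element, a CArG box.
Btg2: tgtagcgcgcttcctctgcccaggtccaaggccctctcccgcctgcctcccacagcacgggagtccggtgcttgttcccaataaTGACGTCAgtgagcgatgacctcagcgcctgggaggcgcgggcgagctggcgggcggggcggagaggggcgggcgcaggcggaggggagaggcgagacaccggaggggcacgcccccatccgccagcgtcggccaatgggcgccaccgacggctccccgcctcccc
Junb: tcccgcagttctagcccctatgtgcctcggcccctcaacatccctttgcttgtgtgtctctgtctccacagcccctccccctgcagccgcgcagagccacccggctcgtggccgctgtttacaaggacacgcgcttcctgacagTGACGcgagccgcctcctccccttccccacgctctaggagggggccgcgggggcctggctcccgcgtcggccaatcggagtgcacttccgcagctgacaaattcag
Zfp36: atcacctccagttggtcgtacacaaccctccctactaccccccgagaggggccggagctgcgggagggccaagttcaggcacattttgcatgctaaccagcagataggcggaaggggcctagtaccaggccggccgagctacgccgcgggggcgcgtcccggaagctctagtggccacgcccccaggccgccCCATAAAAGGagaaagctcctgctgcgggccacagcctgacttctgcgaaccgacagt
Both strands were searched over 250 bases before to 50 after the start. In Btg2 the 2 matches to TGACG overlap, 1 on each strand. Of the 12 genes that fell 9 had an entry, of which 6 held TGACG and 1 (Zfp36) a serum response element, against 20.8% and 1.63% of 32851 promoters. A match is a description of these letters only.

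Junb, a subunit of the AP-1 transcription factor, had 26.0, 34.4, 29.3 and 24.8 CPM in CUMS ovaries, against 107, 115 and 53.8 CPM in controls. It fell by 1.68 ± 0.37 (adjusted p = 0.00577). Btg2, an antiproliferative gene, had 36.2, 34.0, 49.8 and 38.2 CPM in CUMS ovaries, against 112, 115 and 61.0 CPM in controls (-1.28 ± 0.28, adjusted p = 0.0051). For both genes control 3 lay nearest the stressed ovaries without reaching them, and both calls held with each of the 7 libraries left out. Fosb, another AP-1 subunit, had 1.19, 1.35, 1.30 and 1.08 CPM in CUMS ovaries, against 21.1, 17.0 and 4.34 CPM in controls (-3.51 ± 0.86, adjusted p = 0.0102) and kept its call likewise. Egr3, a zinc finger transcription factor, fell by 2.55 ± 0.58 (adjusted p = 0.00725), and Zfp36, which speeds the decay of AU-rich mRNAs, by 1.22 ± 0.29 (adjusted p = 0.00902). Nr4a1, an orphan nuclear receptor, fell by 2.17 ± 0.55 (adjusted p = 0.0118). Fos itself (-0.89, adjusted p = 0.109) and Jun (-0.30, adjusted p = 0.194) did not pass, though the 4 stressed libraries lay below the controls in both. Without control 2 the list had 4 genes past the test, without control 1 it had 6, and without any other library 9 to 14. Egr3 lost its call without control 2 (adjusted p = 0.0513), and Zfp36 without control 1 or control 2 (0.0512 and 0.0596).

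Genes of the luteinising hormone surge and ovulation showed 3 losses among 18 tested (16.7%, against 6.26% of all genes). None rose, and the median was -0.59. Runx2, a transcription factor of the periovulatory granulosa cell, had 21.3, 24.01, 17.8 and 12.8 CPM in CUMS ovaries, against 162, 249.7 and 75.1 CPM in controls. Its fold was -3.10 ± 0.75 (adjusted p = 0.00973), with each control above each stressed ovary. Edn2, an endothelin made at follicle rupture, had 1.09, 2.06, 0.719 and 0.694 CPM in CUMS ovaries, against 19.4, 14.2 and 1.32 CPM in controls (-3.35 ± 0.95, adjusted p = 0.0233), so control 3 lay inside the stressed range. Tnfaip6, a protein of the cumulus matrix, averaged 0.792 ± 0.294 CPM in CUMS ovaries and 2.38 ± 1.66 CPM in controls (SD, n = 4 and 3; fold -1.58 ± 0.47, adjusted p = 0.0308). Ptgs2, the inducible cyclooxygenase of the ovulating follicle, stayed at 0.104 to 0.747 CPM in CUMS ovaries and 0.641 to 2.88 CPM in controls (adjusted p = 0.0748), and Areg, a growth factor of the surge, overlapped (adjusted p = 0.517). The count was 1 without control 1, control 2, CUMS 3 or CUMS 4. Runx2 lost its call without control 2 (adjusted p = 0.0645), Edn2 without control 1, control 2, CUMS 1, CUMS 3 or CUMS 4 (0.057 to 0.108), and Tnfaip6 without control 1, CUMS 3 or CUMS 4 (0.0731 to 0.326).

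Several genes that glucocorticoids induce in other tissues were lower in the stressed ovaries. Of 24 on the list 7 fell (29.2%, against 6.26% of all genes) and 2 rose (8.33%, against 5.18%). The median was 0.09, with 13 folds above 0 and 11 below, so the list as a whole had no common direction. Fkbp5, a co-chaperone of the glucocorticoid receptor (ENSMUSG00000024222, chromosome 17, 28399095 to 28517524, minus strand), had 315, 325, 324 and 288 CPM in CUMS ovaries, against 726, 1074 and 535 CPM in controls (-1.31 ± 0.31, adjusted p = 0.00822). Sgk1, a kinase of ion transport, had 114, 109, 96.9 and 47.8 CPM in CUMS ovaries, against 484, 795 and 289 CPM in controls (-2.51 ± 0.57, adjusted p = 0.00716). In both genes the controls stood above the stressed ovaries, control 2 highest. Errfi1, an inhibitor of the EGF receptor, fell by 1.91 ± 0.47 (adjusted p = 0.0101). Plin4, a lipid droplet coat protein, had 55.2, 46.2, 35.6 and 23.7 CPM in CUMS ovaries, against 445, 857 and 152 CPM in controls (-3.59 ± 0.89, adjusted p = 0.0107). The others that fell were Klf9, Dusp1, which is also on the immediate early list, and Cdkn1a, which is also on the apoptosis list. Those that rose were Arrdc2 and the metallothionein Mt1, and neither passed without control 1, control 2, CUMS 1 or CUMS 4. Tsc22d3, which encodes GILZ (0.09 ± 0.13, adjusted p = 0.697), and the receptor gene Nr3c1 (-0.13 ± 0.25, adjusted p = 0.786) overlapped between the groups. Without control 2 the count of falls was 2, and Fkbp5, Sgk1, Errfi1 and Plin4 missed the threshold (adjusted p = 0.0883, 0.0609, 0.0728 and 0.0775). Without any other library 5 to 7 fell.

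Of 19 clock genes tested 3 rose (15.8%, against 5.18% of all genes) and 1 fell (5.26%, against 6.26%), with a median of -0.03. Per2, a repressor of the clock, had 57.2, 54.6, 56.0 and 64.1 CPM in CUMS ovaries, against 31.1, 27.0 and 36.6 CPM in controls (0.88 ± 0.26, adjusted p = 0.0273). Cry1, its partner, rose by 0.43 ± 0.13 (adjusted p = 0.0291). Rora, a nuclear receptor of the clock, had 33.8, 34.3, 33.2 and 35.3 CPM in CUMS ovaries, against 66.4, 97.2 and 54.2 CPM in controls (-1.09 ± 0.31, adjusted p = 0.022). Each of these 3 genes separated the groups, and none of them passed without control 1 (adjusted p 0.0519 to 0.103) or without control 2 (0.131 to 0.173). Per2 was also lost without CUMS 1, CUMS 3 or CUMS 4, and Cry1 without CUMS 1 or CUMS 3 (0.0517 to 0.0932). Since the hour of collection is not known, whether both groups were taken at the same hour was not tested.

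Genes of DNA replication were higher by small amounts. Of 28 cell cycle genes tested 8 rose (28.6%, against 5.18% of all genes) and none fell. The 28 folds were above 0, and the median was 0.28. The helicase that opens DNA at replication origins, built from Mcm2 to Mcm7, made up most of the 8 that rose. Mcm2 (ENSMUSG00000002870, chromosome 6, 88883474 to 88898780, minus strand) had 96.7, 89.5, 97.2 and 90.8 CPM in CUMS ovaries, against 60.1, 51.8 and 63.1 CPM in controls (0.68 ± 0.11, adjusted p = 0.00111). Mcm5 had 76.2, 69.0, 75.1 and 68.8 CPM in CUMS ovaries, against 45.8, 40.2 and 44.5 CPM in controls (0.73 ± 0.15, adjusted p = 0.00461). Within each group these libraries differed little, and the gap between the groups was wider than either range. Mcm3 rose by 0.55 ± 0.11 (adjusted p = 0.00343), Mcm4 by 0.44 ± 0.10 (adjusted p = 0.00933) and Mcm6 by 0.38 ± 0.10 (adjusted p = 0.0194). E2f1, a transcription factor that drives S phase genes, rose by 0.51 ± 0.13 (adjusted p = 0.0135). The mitotic genes Cdc20 and Plk1 passed narrowly (adjusted p = 0.0449 and 0.0498). Mcm2, Mcm3 and Mcm5 kept their calls with each of the 7 libraries left out, and Mcm4 lost it without control 2 (adjusted p = 0.0796). The count was 3 without control 2 and 4 to 6 without any other library.

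The Mcm5 promoter is printed as the member with the largest fold, as the 250 bases before the RefSeq start (GRCm38.p6, chr8:75109259-75109508, plus strand), with matches to the E2F motif in capitals.
Mcm5: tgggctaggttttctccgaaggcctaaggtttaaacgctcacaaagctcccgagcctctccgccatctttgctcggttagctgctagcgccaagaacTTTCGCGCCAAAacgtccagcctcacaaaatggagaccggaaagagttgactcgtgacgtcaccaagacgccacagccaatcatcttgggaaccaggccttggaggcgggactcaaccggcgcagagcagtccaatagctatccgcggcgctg
The E2F motif was searched on both strands as TTTCCCGC, TTTCGCGC, TTTGCCGC or TTTGGCGC. Mcm5 holds 2 overlapping matches, 1 on each strand. Of the 8 cell cycle genes that rose 7 had a promoter entry, and 3 of them (Mcm3, Mcm5 and Mcm6) held the motif, against 2.26% of 32851 promoters. In Mcm2 these letters are not in the window.

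A wider list of 45 replication genes was chosen after its values had been seen and so gives no separate support. It held 16 that rose (35.6%, against 5.18% of all genes) and none that fell, with a median of 0.27. Gins2, part of the same helicase complex, rose by 0.64 (adjusted p = 0.00108). The polymerase delta subunits Pold1 and Pold2 rose by 0.61 (adjusted p = 0.00537) and 0.69 (adjusted p = 0.00108), and the licensing factor Cdt1 by 0.60 (adjusted p = 0.012). The sliding clamp Pcna lay above the controls in the 4 stressed ovaries (0.25, adjusted p = 0.0524), and the 6 origin recognition genes did not pass, with folds between -0.15 for Orc4 (adjusted p = 0.434) and 0.33 for Orc1 (adjusted p = 0.291). Without control 2 the count was 8, without control 1 it was 9, and without any other library 11 to 17.

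Several genes of apoptosis and growth arrest were lower. Of 20 tested 6 fell (30.0%) and 1 rose, with a median of -0.21. Cdkn1a, the cell cycle inhibitor p21, had 21.7, 26.8, 17.9 and 14.1 CPM in CUMS ovaries, against 91.3, 107 and 51.2 CPM in controls (-2.05 ± 0.43, adjusted p = 0.0044). Bmf, a death activator of the BCL2 family, had 26.5, 30.0, 29.1 and 23.8 CPM in CUMS ovaries, against 73.0, 99.5 and 49.7 CPM in controls (-1.44 ± 0.23, adjusted p = 0.00108). Both kept their calls with each library left out, and control 3 was again the lowest control. Also lower were the death activators Bbc3 (-0.80 ± 0.18, adjusted p = 0.00656) and Bcl2l11 (-0.59, adjusted p = 0.0137), the survival gene Mcl1 (-0.42 ± 0.09, adjusted p = 0.00518) and Mdm2, which marks p53 for decay. Trp53, which encodes p53, rose by 0.29 (adjusted p = 0.0303), but not without control 2, control 3, CUMS 1 or CUMS 3. The list thus holds losses of genes that promote death and of a gene that prevents it. Without control 2 there were 2 falls, and Mcl1 and Bbc3 missed the threshold (adjusted p = 0.0659 and 0.0575). Without any other library 5 or 6 fell.

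Several matrix genes were lower, among them 3 collagens of the basement membrane. Of 23 tested 6 fell (26.1%, against 6.26% of all genes) and none rose, with a median of -0.42. In 13 of the 23 the 4 stressed ovaries lay below the controls (16.1% of all genes). Col15a1, a basement membrane collagen (ENSMUSG00000028339, chromosome 4, 47208161 to 47313167, plus strand), had 83.0, 104, 79.0 and 73.5 CPM in CUMS ovaries, against 212, 225 and 176 CPM in controls (-1.27 ± 0.24, adjusted p = 0.00256). Sparc, which binds collagen IV, had 851, 924, 861 and 782 CPM in CUMS ovaries, against 1550, 1871 and 1351 CPM in controls (-0.90 ± 0.18, adjusted p = 0.00398). In both genes the lowest control lay well above the highest stressed ovary. Col4a1 and Col4a2, the chains of collagen IV, which lie beside each other on chromosome 8, both had a fold of -0.64 (adjusted p = 0.0063 and 0.00732). These 4 genes kept their calls with each library left out, and with 1 library left out 4 or 5 genes of the list fell. Col5a1 and Bgn also fell. The annotated spans of Col4a1 and Col4a2 overlap at their starts, on opposite strands.

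Of 14 endothelial genes 2 fell (14.3%, against 6.26% of all genes). Pecam1, an adhesion molecule of the vessel wall, had 58.8, 63.2, 54.8 and 59.5 CPM in CUMS ovaries, against 113, 117 and 78.7 CPM in controls (-0.80 ± 0.16, adjusted p = 0.00289). Cdh5, the cadherin of endothelial junctions, fell by 0.42 (adjusted p = 0.0429), but passed with 1 library of the set left out only when that was control 3, so that the count was otherwise 1. Of 13 smooth muscle and pericyte genes only Rgs5, a pericyte marker, passed (7.69%, near the 6.26% of all genes that fell). It had 64.0, 61.3, 68.7 and 62.2 CPM in CUMS ovaries, against 187, 180.1 and 117 CPM in controls (-1.33 ± 0.20, adjusted p = 0.00108). Cxcl12, a chemokine of stromal cells, had 52.0, 51.7, 48.0 and 55.2 CPM in CUMS ovaries, against 326, 436 and 93.6 CPM in controls (-2.46 ± 0.48, adjusted p = 0.00281). The stressed ovaries were close together in each of these genes, and control 3 was the lowest control. Adm, which encodes adrenomedullin, a peptide that widens vessels, and Egln3, an oxygen sensor, fell by 1.45 and 1.71 (adjusted p = 0.0232 and 0.0151). They were the 2 falls among 17 genes of glycolysis and hypoxia (11.8%, against 6.26% of all genes), and neither passed without control 1 or without control 2.

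Macrophage and antigen presentation genes were lower. Of 18 macrophage genes 4 fell (22.2%, against 6.26% of all genes) and none rose, with a median of -0.46. Fcer1g, a signalling chain of Fc receptors, had 14.1, 16.2, 12.3 and 12.6 CPM in CUMS ovaries, against 28.2, 23.4 and 26.9 CPM in controls (-0.92 ± 0.24, adjusted p = 0.0162). Cx3cr1, a chemokine receptor, fell by 0.87 ± 0.24 (adjusted p = 0.0212), Aif1 by 0.81 ± 0.26 (adjusted p = 0.0403) and the mannose receptor gene Mrc1 by 0.45 ± 0.14 (adjusted p = 0.0378). Without control 1 none of the 18 passed, without control 2 or CUMS 3 only 1 did, and the adjusted p then reached 0.0684 for Fcer1g, 0.114 for Cx3cr1, 0.257 for Aif1 and 0.127 for Mrc1. Aif1 and Mrc1 kept their calls only without CUMS 2. The pan-leukocyte gene Ptprc had 23.6, 25.5, 26.1 and 20.2 CPM in CUMS ovaries, against 52.4, 42.3 and 58.4 CPM in controls (-1.10 ± 0.22, adjusted p = 0.00375). With the B cell receptor chain Cd79b it was 1 of 2 lymphocyte genes of 15 that fell (13.3%, against 6.26% of all genes). Of the 2, Ptprc alone passed without any library of the set other than CUMS 3, and without CUMS 3 both did.

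The MHC class II genes, which present peptides to helper T cells, form a list chosen after its values had been seen. Of 11, 8 fell (72.7%, against 6.26% of all genes), with a median of -0.94. Ciita, the activator that switches these genes on, had 3.32, 4.39, 5.80 and 4.90 CPM in CUMS ovaries, against 9.69, 13.5 and 9.47 CPM in controls (-1.24 ± 0.20, adjusted p = 0.00111). Cd74, the invariant chain, fell by 0.92 (adjusted p = 0.00879), and the alpha and beta chain genes H2-Aa and H2-Ab1 by 0.94 and 0.90 (adjusted p = 0.00802 and 0.00601). The 4 stressed ovaries lay below the controls for 10 of the 11 (16.1% of all genes). Without control 2 only 1 passed, and without any other library 6 to 8. Of 25 interferon response genes 0 passed, with a median of -0.18, and none of 16 heat shock genes did.

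The highest and lowest folds by rule added genes of other kinds. Among the 12 highest were Serpina3c, a serine protease inhibitor, with 59.2, 52.3, 38.8 and 76.3 CPM in CUMS ovaries, against 16.4, 10.9 and 19.1 CPM in controls (1.87 ± 0.45, adjusted p = 0.0098), and C7, a terminal complement component (1.82 ± 0.42, adjusted p = 0.00807). Fabp3, a fatty acid carrier, had 81.6, 72.4, 75.6 and 98.2 CPM in CUMS ovaries, against 23.7, 22.5 and 32.4 CPM in controls (1.64 ± 0.39, adjusted p = 0.0088). Plin1, a coat protein of lipid droplets (ENSMUSG00000030546, chromosome 7, 79720218 to 79732903, minus strand), had 56.8, 48.1, 54.8 and 68.9 CPM in CUMS ovaries, against 26.7, 16.6 and 26.1 CPM in controls (1.30 ± 0.28, adjusted p = 0.00501). These 4 genes separated the groups, with CUMS 4 highest in each. Ush1g, a scaffold protein known from hair cells, rose by 1.44 ± 0.30 (adjusted p = 0.00434). Serpina5, another serine protease inhibitor, rose by 1.43 ± 0.42 (adjusted p = 0.0267), and Itih2, which binds hyaluronan, by 1.40 ± 0.33 (adjusted p = 0.00844). Aqp5, Cntn2, Mt3 and Tmem52, with folds of 1.75, 1.30, 1.29 and 1.27, and Insl3 complete the highest. Plin1 and Ush1g kept their calls with each library left out. Without control 2 the adjusted p was 0.0728 for Serpina3c, 0.062 for C7, 0.0606 for Fabp3, 0.138 for Serpina5, 0.0731 for Itih2, 0.145 for Aqp5, 0.0768 for Cntn2, 0.143 for Mt3 and 0.0824 for Tmem52. Serpina5, Aqp5, Mt3 and Tmem52 were lost without some other library too (adjusted p up to 0.0965, 0.108, 0.0696 and 0.0796).

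Among the 12 lowest, Sema3d, a secreted guidance cue, had 19.1, 31.5, 12.8 and 4.64 CPM in CUMS ovaries, against 261, 344 and 119 CPM in controls (-3.83 ± 0.76, adjusted p = 0.00309). Lrrn1, a leucine-rich repeat membrane protein, had 33.6, 40.1, 34.6 and 32.2 CPM in CUMS ovaries, against 451, 581 and 91.9 CPM in controls (-3.42 ± 0.62, adjusted p = 0.00227). Ces2a, a carboxylesterase, had 0.467, 0.374, 0.494 and 1.22 CPM in CUMS ovaries, against 35.6, 39.4 and 8.19 CPM in controls (-5.41 ± 1.34, adjusted p = 0.0109). Each of these kept its call with any library of the set left out, and control 3 was in each the lowest control. Tnfrsf9, the costimulatory receptor 4-1BB, had 1.504, 1.495, 1.03 and 0.564 CPM in CUMS ovaries, against 15.9, 36.9 and 8.83 CPM in controls (-4.17 ± 1.04, adjusted p = 0.0114). Atp12a, a proton pump, had 0.726, 1.64, 1.30 and 0.477 CPM in CUMS ovaries, against 7.52, 5.61 and 20.8 CPM in controls (-3.44 ± 0.64, adjusted p = 0.00242), here with control 3 highest. Rnf152, a ubiquitin ligase, Cdsn, an adhesion protein of cornified cells, Podnl1, Pik3c2g, Dner, Plin4 and Fosb complete the lowest, with folds from -3.68 to -3.45. Dner overlapped between the groups, since control 3 had 1.13 CPM, below CUMS 2 at 1.22. Tnfrsf9, Podnl1, Pik3c2g and Dner lost their calls without control 2 (adjusted p = 0.0781, 0.0558, 0.0781 and 0.105), and Pik3c2g and Dner without others as well (up to 0.072 and 0.0524).

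Of 20 antioxidant genes 2 rose and 2 fell, 10% in each direction, against 5.18% and 6.26% of all genes. Gsta4, a glutathione transferase, had 129.8, 129, 132 and 136 CPM in CUMS ovaries, against 68.0, 62.9 and 74.5 CPM in controls (0.94 ± 0.25, adjusted p = 0.0143). Gclc, the rate-limiting enzyme of glutathione synthesis, rose by 0.60 ± 0.17 (adjusted p = 0.0248). Srxn1, which repairs peroxiredoxins, fell by 1.12 ± 0.25 (adjusted p = 0.00573), and the secreted peroxidase gene Gpx3 by 1.31 ± 0.40 (adjusted p = 0.0346), with 196, 404, 379 and 169 CPM in CUMS ovaries, against 469.8, 525 and 1137 CPM in controls. Without control 1 the adjusted p was 0.0567 for Gsta4, 0.0687 for Gclc and 0.0541 for Srxn1, without control 2 it was 0.078 for Gsta4, 0.141 for Gclc and 0.0645 for Gpx3, and without control 3 it was 0.234 for Gpx3. Gclc and Gpx3 were also lost without CUMS 1 or CUMS 4 (0.0706 to 0.104). None of the 13 mitochondrially encoded genes passed, although in 12 of them the stressed ovaries lay below the controls (16.1% of all genes) and the median was -0.40. Of 24 nuclear genes of oxidative phosphorylation 2 rose (8.33%, against 5.18% of all genes), Uqcrc1 by 0.31 (adjusted p = 0.0191) and Ndufv1 by 0.41 (adjusted p = 0.0408). Neither passed without control 1, CUMS 1, CUMS 3 or CUMS 4. Of 20 ribosomal protein genes none passed (median 0.13).

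Markers of tissue near the ovary and of the pituitary, the other organ sequenced, were read in the same libraries. Of these 5 lists the summed levels of pituitary and motile cilia genes did not overlap between the groups, and those of adipocyte, surface epithelium and oviduct secretory genes did. Of 12 adipocyte genes 11 were tested, with a median of -1.99, and besides Plin1 none passed. Their summed CPM was 80.55 to 88.77 in CUMS libraries and 68.5, 133.4 and 69.68 in controls 1, 2 and 3. Adipoq, which encodes the fat hormone adiponectin, had 0.0868 to 0.747 CPM in CUMS ovaries and 1.23, 5.79 and 0.792 CPM in controls, and the fat hormone Lep was highest in control 2 as well. The brown fat gene Ucp1 was at 0 in 5 of the 7 libraries. Of 11 pituitary genes 7 were tested and none passed, with a median of 1.13 and a summed CPM of 80.89 to 118.6 in CUMS libraries against 43.69 to 52.57 in controls. Growth hormone (Gh) had 22.2 to 31.8 CPM in CUMS ovaries and 9.96 to 13.9 CPM in controls. Ovgp1, a secretory product of the oviduct, stood at 25.1 FPKM in control 1 and at 0.935 to 2.24 FPKM in the other 6. The summed CPM of motile cilia genes was 34.7 to 46.43 in CUMS libraries and 26.89 to 34.46 in controls. Of 15 motile cilia genes, of 14 surface epithelium genes and of 6 oviduct secretory genes none passed. The part of these transcripts, and of the mitochondrial share, in the results above was not tested. Leaving out genes at least 100 times higher in the pituitary table took out 91 of the genes tested and left 2047 past the test. That setting does not address adipocyte, cilia, epithelium or oviduct genes or the mitochondrial share.

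The stress effect of this set was set against that of the 6M-8W ovaries, which have their own controls, with a test of the difference. The 2 effects differed in 1552 genes (8.74%), 722 higher in 6M-12W (4.06%) and 830 lower (4.67%). Among the lists luteal genes differed most by share: 5 of 12 were lower in 6M-12W and none higher. The median stress fold of the 12 was -0.79 in 6M-12W and 0.67 in 6M-8W. In 6M-8W itself none of the 12 passed the test of the stress effect in either direction. Hsd17b7 averaged 55.7 CPM in CUMS and 590.2 CPM in control ovaries of 6M-12W, and 846 CPM in CUMS and 209.6 CPM in control ovaries of 6M-8W. The difference of its stress effect was -5.42 (adjusted p = 0.02). For Prlr the difference was -1.81 (adjusted p = 0.0097), for Star -2.62 (adjusted p = 0.048), for Ptgfr -3.74 (adjusted p = 0.0442) and for Sfrp4 -3.96 (adjusted p = 0.0427). In the cell cycle list 11 of 28 differed upward and none downward, among them Mcm2 by 0.81 (adjusted p = 0.00449) and Mcm5 by 0.98 (adjusted p = 0.00897). Of the oocyte genes Zar1, Zp1 and Zp3 differed, by 1.26, 1.24 and 1.10 (adjusted p = 0.0291, 0.0266 and 0.0498). In matrix genes 0 of 23 differed, and Col15a1 had a fold of -0.69 in 6M-8W and a difference of -0.58 (adjusted p = 0.265). Serpina3c, with 1.69 in 6M-8W, had a difference of 0.18 (adjusted p = 0.882). Of 25 interferon response genes 6 were lower in 6M-12W by this test, with medians of -0.18 in 6M-12W and 1.58 in 6M-8W. The count of differing genes fell to 561 without control 2, 654 without control 1, 953 without CUMS 3, 1006 without CUMS 1 and 1021 without CUMS 4, and was 1268 without CUMS 2 and 1801 without control 3. A sequencing or handling batch that followed the sets and the sets themselves cannot be told apart here.

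**Figure D5:**
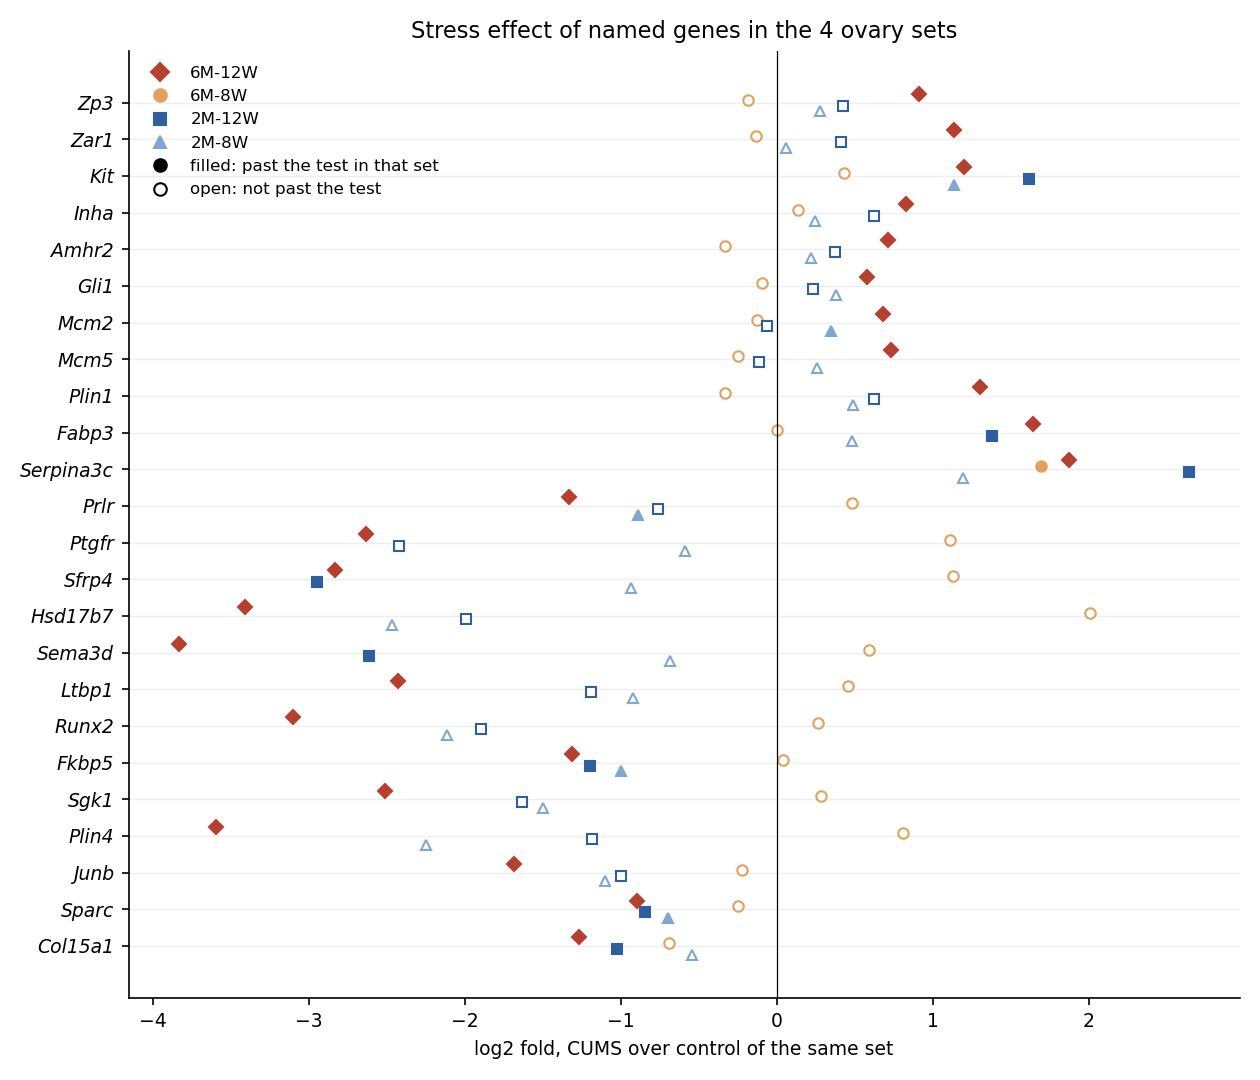
For 24 named genes the log2 fold (CUMS over the control of the same set) is given in the 4 ovary sets, with filled marks where it passed the test in that set. Prlr, Ptgfr, Hsd17b7, Sfrp4, Sgk1 and Plin4 lie left of 0 in 6M-12W and right of it in 6M-8W, while Sparc, Col15a1 and Serpina3c lie on the same side in both.

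Against 2M-12W, the set of the same duration, the difference of the stress effects passed the test in 0 genes with edgeR (2043 at an unadjusted p under 0.05, and 86 with DESeq2). In 2M-12W the fold was -2.42 for Ptgfr, -2.95 for Sfrp4, -1.20 for Fkbp5, -0.84 for Sparc and 1.62 for Kit, against -2.63, -2.83, -1.31, -0.90 and 1.20 in 6M-12W. Values on the same side do not show that the effects were alike, and the difference for Kit, for example, was -0.42 ± 0.38 (SE, adjusted p = 0.716). Against the mean of the other 3 sets 434 genes differed (2.44%), 238 upward (1.34%) and 196 downward (1.10%). Among them were Mcm2 (0.63, adjusted p = 0.0179), Mcm5 (0.77, adjusted p = 0.0304), Amhr2 (0.63, adjusted p = 0.0359), Foxl2 (0.54, adjusted p = 0.0408) and Thra (0.40, adjusted p = 0.027). Ltbp1, which stores latent TGF-beta in the matrix, had 156, 177, 146 and 107 CPM in CUMS ovaries, against 856, 1094 and 406 CPM in controls (-2.42 ± 0.44, adjusted p = 0.00217). It differed from the other sets by -1.88 (adjusted p = 0.0408), and its mean level in 2M-12W was 166 CPM in CUMS and 377 CPM in control ovaries. Basp1, a membrane protein of growing nerve endings, fell by 2.77 ± 0.52 (adjusted p = 0.0026) and differed by -2.14 (adjusted p = 0.0471). Fcgr4, an Fc receptor of myeloid cells, had 6.03 to 7.51 CPM in CUMS ovaries, against 36.9, 10.6 and 56.6 CPM in controls, and differed by -2.72 (adjusted p = 0.0408). Angpt4, an angiopoietin, rose by 0.70 ± 0.18 (adjusted p = 0.0153), with folds of -0.33 to -0.47 in the other 3 sets. The stress effect of Angpt4 in 6M-12W lost its call without control 1, control 2 or CUMS 1 (adjusted p = 0.0947, 0.0781 and 0.0533). That of Fcgr4 was -2.365 ± 0.627 (adjusted p = 0.0157) and lost its call without control 1 or control 3 (0.0508 and 0.0747). For the differences of single genes from the other sets such values are not given here. This count of 434 was 4 without control 1, 18 without control 2, 30 without CUMS 1, 55 without CUMS 3, 135 without CUMS 4, 167 without CUMS 2 and 609 without control 3.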

How the data were processed

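The authors deposited, for each ovary library, raw counts of reads for each gene together with FPKM values. Per the labels' protocols, extraction used chloroform and library construction the NEBNext Ultra II kit. Aligner and counting program: not given in the sources used here. Deposited FPKM values served as marker levels and in no test. Gene positions are those of GRCm38.

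The counts of the 31 ovary libraries, in 8 groups, were fitted together with edgeR 4.0.16 in R 4.3.3: filterByExpr left 17766 genes, libraries were scaled with TMM factors, and the quasi-likelihood F test was adjusted by Benjamini-Hochberg, with a threshold of 0.05. CPM values use TMM-scaled totals. The SE was taken as the absolute log2 fold over the root of the F statistic. The contrasts were the 6M-12W stress effect and its difference from the other sets. The common biological coefficient of variation was 0.207, and the fit was tested on simulated data.

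Members and lists were chosen with earlier results of these data known. Genes named by rule are 27 core ovarian genes, the 12 highest and 12 lowest folds past the test (with a mean log2 CPM no lower than 1 and without predicted genes), 4 called members with the smallest p of each list with at least 3, and the 5 highest and 5 lowest differences. Other genes named were chosen after their values were seen. Some genes met by these rules are not reported here. The main fit did not treat replicate numbers as pairs. Deviations from the group means had correlations of -0.031 to 0.043 between same-numbered libraries and -0.104 to 0.116 between the others. With so few libraries this cannot tell whether the numbers pair them. Alternatives were RLE size factors, DESeq2 1.42.0, no filter on low counts, a replicate block, the 7 libraries alone, each library left out, and leaving out genes at least 100 times higher in pituitary.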

Additional observations from a re-analysis of the deposited data

Results flagged for a closer look

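In the CUMS ovaries 1 library stood apart from the other 3 in 2 of 112 quantities examined, by Dixon's ratio of gap to range at its 95% critical value. Cyp17a1 was lowest in CUMS 2, at 649 CPM (ratio 0.899), and Thra was lowest in CUMS 1, at 176 CPM (ratio 0.898). Chance sets a library apart in this way in about 1 in 20 groups.

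In 15 of 108 named genes the stress effect differed from the mean of the other 3 sets, with edgeR's adjusted p of 0.0145 to 0.0471. Of all genes tested 2.44% did, but the choice of the named genes makes the 2 shares unlike. On the log2 scale the effect was higher in 6M-12W for Foxl2 (0.542), Amhr2 (0.626), Thra (0.395), Mcm2 (0.629), Mcm5 (0.768), Angpt4 (1.12), Myo1a (1.04), Gcat (1.03), Fgfr4 (1.01) and Palm3 (0.992). It was lower for Pcdhgb1 (-3.57), Fcgr4 (-2.72), Basp1 (-2.14), Pyhin1 (-1.96) and Ltbp1 (-1.88). These last were named as the 5 lowest differences past this test. Angpt4, Myo1a, Gcat, Fgfr4 and Palm3 were named as the 5 highest. For both groups of genes that choice fixed that they passed it. Pcdhgb1 shares exons with other protocadherins, so its counts are uncertain, and control 1 at 13.2 CPM lay within the range of the CUMS libraries, 4.06 to 28.7 CPM.

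Against 6M-8W alone the stress effect differed in 44 of the named genes reported here, against 8.74% of all genes tested, with adjusted p of 0.0023 to 0.0498. It was higher in 6M-12W for Amh (1.21), Zp3 (1.1), Fabp3 (1.64), Plin1 (1.64), Amhr2 (1.05), Gli1 (0.672), Zar1 (1.26) and Zp1 (1.24). Also higher were Thra (0.634), Mcm2 (0.81), Mcm3 (0.621), Mcm5 (0.984), Mcm4 (0.53), Angpt4 (1.16), Myo1a (1.29), Gcat (1.31) and Fgfr4 (1.28). Further genes higher by this test were Palm3 (1.34), Aldh1l2 (1.91), Wnt6 (1.86) and Afmid (1.72). It was lower in 6M-12W for Star (-2.62), Prlr (-1.81), Ptgfr (-3.74), Fkbp5 (-1.36), Ces2a (-6.06), Tnfrsf9 (-6.31), Sema3d (-4.42), Podnl1 (-3.71) and Plin4 (-4.4). Also lower were Rnf152 (-3.74), Lrrn1 (-2.7), Hsd17b7 (-5.42), Sfrp4 (-3.96), Runx2 (-3.36), Bmf (-1.06), Mcl1 (-0.493), Sgk1 (-2.79) and Pcdhgb1 (-3.08). Further genes lower by this test were Basp1 (-3.38), Pyhin1 (-2.64), Ltbp1 (-2.89), Ssu2 (-6.27) and Apol6 (-4.69). Aldh1l2, Wnt6, Afmid, Ssu2, Apol6, Star and Amh are among them although their own stress effect in 6M-12W did not pass the test. Aldh1l2, Wnt6, Afmid, Fabp3 and Plin1 were named as the 5 highest differences past the test against 6M-8W. Ces2a, Tnfrsf9, Hsd17b7, Ssu2 and Apol6 were named as the 5 lowest. That choice fixed that they passed it. Many of the others were named for an extreme fold or a small p of the 6M-12W stress effect, which is part of this difference. The 44 thus cannot be read as an excess over the 8.74% of all genes.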

How the results depend on the processing

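The count of 2032 genes was 2044 with RLE size factors, 2770 with DESeq2, 1566 without a filter, 2914 in the 7 libraries alone, 662 with the replicate block and 928 with the replicate block in the 7 libraries alone. With 1 library left out it ran from 550 to 2266. For the difference from the mean of the other 3 sets, 434 became 1175 with DESeq2, 189 without a filter, 2 with the replicate block and 4 to 1009 with 1 library left out. For the difference from 6M-8W, 1552 became 2333 with DESeq2, 766 with the replicate block and 561 to 1856 with 1 library left out. For the difference from 2M-12W, 0 became 86 with DESeq2 and 0 to 4 with 1 library left out. The causes were not tested.

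Of 84 named genes past the test 18 passed under each of 38 settings, 25 with each of the 7 libraries left out, 39 with the replicate block and 77 in the 7 libraries alone, and 0 reversed. Calls were lost for 34 without control 1, 54 without control 2 and 6 without control 3. Beside the core ovarian genes, these genes were named for an extreme fold or a small p. Their counts therefore do not describe all genes past the test. Among named genes not past the test 6 reversed with 1 library left out, where folds ran from -0.109 to 0.453 for Cyp19a1, from -0.153 to 0.215 for Hsd3b1, from -0.131 to 0.0033 for Pgr, from -1.73 to 0.0128 for Akr1c18, from -0.279 to 0.151 for Nr3c1 and from -0.0038 to 0.154 for Tsc22d3. Counts of a few reads, as for Areg, Ptgs2 and Lep, limit what their folds can show.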

Other observations

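A list of 19 lipid droplet genes, chosen after its values had been seen, held changes in both directions. Fabp3 and Plin1 rose (10.5%, against 5.18% of all genes) and Plin4 fell (5.26%, against 6.26%). The median log2 fold of the list was 0.07 (CUMS over control). Plin5, a droplet coat protein of tissues that burn fat, had a fold of -2.83 without passing (edgeR's adjusted p = 0.0533). Plin2, the coat protein found in most cells, had 0.03 (adjusted p = 0.923), Plin3 had 0.12 (adjusted p = 0.316), and Soat1, which stores cholesterol as esters, had 0.07 (adjusted p = 0.725). Without control 2 neither Plin4 (adjusted p = 0.0775) nor Fabp3 (adjusted p = 0.0606) passed, and Plin1 did (adjusted p = 0.0486).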
